A study of Mus musculus with 6 samples.

Results

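Transcripts of the enzymes of glycolysis and the pentose phosphate pathway were compared between peritoneal macrophages of cKO mice, which lack Fbxo38 in myeloid cells, and of WT littermates. Fbxo38 encodes an F-box protein, a class that selects substrates for ubiquitin ligases. There were 3 libraries of each genotype, cKO 1 to 3 and WT 1 to 3, and the cells of both genotypes had been kept for 24 hours with 20 ng/mL of IL-4 and IL-13. Neither the age of the mice nor the Cre driver is given in the sources used here. The mice were 3 pairs of littermates, and the labels do not tie the library numbers to a pair. The members were chosen by gene name, from hexokinase to lactate dehydrogenase and pyruvate dehydrogenase, with the enzymes of both branches of the pentose phosphate pathway. The deposited table holds 90 transcripts of 31 of the 40 genes named this way, out of 33539 transcripts in all. Every transcript in it has an absolute log2 fold change of 1 or more by the authors' comparison, so each member was already selected for a difference, and the number listed higher or lower is no finding by itself. Values are TPM, transcripts per 1000000 transcripts of a library, which are scaled for transcript length.

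Glycolysis splits glucose into pyruvate in the cytosol and yields ATP and NADH. The pentose phosphate pathway draws off glucose 6-phosphate to make NADPH and ribose 5-phosphate, and its non-oxidative enzymes return the carbon to glycolysis. Macrophages use glycolysis strongly in classical activation, while alternative activation by IL-4 and IL-13 is known for its reliance on mitochondrial oxidation together with glucose uptake.

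The members were mostly side forms of their genes. Of the 85 members with a GENCODE class, 28 were retained introns, 18 were processed transcripts without a coding frame, 7 were subject to nonsense-mediated decay and 32 were coding. Among all listed transcripts with a class, retained introns were 24.3%, against 32.9% of the members. Only 5 of the 85 are the principal coding form of their gene, those of Pfkfb2, Aldoc, Tpi1, Eno3 and Ldhb, and the highest of these reached 3.21 TPM. The principal forms of the other genes were not analysed here.

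Stretches that set apart 5 of the forms described in full from another form of the same gene are shown from GENCODE M21, build GRCm38, matched by identifier and read 5′ to 3′. Tkt-208 (chromosome 14, plus strand) begins with 165 bases that lie in an intron of the principal coding form Tkt-201, shown in capitals, and then joins its coding sequence.
Tkt-208: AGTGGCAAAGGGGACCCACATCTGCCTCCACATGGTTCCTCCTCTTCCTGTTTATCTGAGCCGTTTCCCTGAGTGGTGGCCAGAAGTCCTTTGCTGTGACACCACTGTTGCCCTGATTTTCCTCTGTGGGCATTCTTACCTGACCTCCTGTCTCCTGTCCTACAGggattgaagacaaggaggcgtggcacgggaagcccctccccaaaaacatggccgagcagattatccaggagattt
Taldo1-205 (chromosome 7, plus strand) likewise begins with 38 bases from an intron of Taldo1-201, in capitals.
Taldo1-205: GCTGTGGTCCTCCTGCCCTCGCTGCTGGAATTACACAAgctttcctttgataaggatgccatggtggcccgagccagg
Pfkp-201 and Pfkp-207 (chromosome 13, minus strand) are both coding and each carries an exon of 153 bases that the other lacks, in capitals, with 58.8% of the bases identical between the exons.
Pfkp-201: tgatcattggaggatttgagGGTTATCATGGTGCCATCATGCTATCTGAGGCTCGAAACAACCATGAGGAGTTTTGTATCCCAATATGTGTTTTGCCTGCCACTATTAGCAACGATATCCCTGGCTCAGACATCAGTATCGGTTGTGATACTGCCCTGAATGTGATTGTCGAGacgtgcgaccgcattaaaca
Pfkp-207: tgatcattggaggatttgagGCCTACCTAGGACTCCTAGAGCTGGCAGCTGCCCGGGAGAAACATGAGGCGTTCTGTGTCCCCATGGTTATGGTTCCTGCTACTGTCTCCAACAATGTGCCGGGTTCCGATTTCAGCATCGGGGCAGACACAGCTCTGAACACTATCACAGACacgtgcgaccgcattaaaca
Hk3-204 (chromosome 13, minus strand) skips 56 bases of the coding form Hk3-201, in capitals, a number that is not a multiple of 3.
Hk3-201: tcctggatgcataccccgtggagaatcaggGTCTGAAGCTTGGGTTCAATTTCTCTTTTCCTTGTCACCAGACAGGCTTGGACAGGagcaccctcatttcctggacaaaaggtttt
Gpi1-206 (chromosome 7, minus strand) begins with 35 intron bases of Gpi1-201, not shown, and skips 2 bases of that form. It also carries 4 bases at a junction that Gpi1-201 lacks, in capitals.
Gpi1-206: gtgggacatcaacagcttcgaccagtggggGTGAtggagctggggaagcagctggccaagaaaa

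A transcript was tested where it reached at least 1 TPM in at least 3 of the 6 libraries, by limma on log2(TPM + 1), with Benjamini-Hochberg adjustment over all 2050 tested transcripts. Only 8 of the 90 members, or 8.89%, were tested, against 6.11% of all listed transcripts, and 65 stayed below 1 TPM in every library. None of the 8 passed, and 0.0% of all tested transcripts did, the lowest limma adjusted p being 0.0651. At an unadjusted p under 0.05 there were 2 of the 8, Tkt-208 and Gpi1-206, against 23.0% of all tested transcripts. Tkt-208 was the 1 higher in cKO, against 6.1% of all tested transcripts, and Gpi1-206 the 1 lower, against 16.9%. The genotypes did not overlap for 1 of the 8, against 37.0%, and that 1, again Tkt-208, was higher in cKO, against 14.1%. Tkt-208 reached 1 TPM only in the 3 cKO libraries, so it met the filter only through the group where it was high. Its limma p and its non-overlap among the tested transcripts are therefore no independent support for a difference. Of the 8, 3 were higher and 5 lower in cKO, with 50.6% of all tested transcripts lower, and their median log2 difference was -0.77, against -0.39 over all tested transcripts. With median-ratio rescaling of the libraries these medians were -0.13 for the 8 members and 0.33 for all tested transcripts, and with library weights -0.09 and -0.02. Of the 90 members, the authors' deposited table gives an adjusted p under 0.05 for 1, Tkt-208, against 0.268% of all listed transcripts, or 0.0984% counting those higher in cKO.

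The summed TPM of all 90 members overlapped between the genotypes. It was 57.7, 58.4 and 55.7 TPM in cKO 1 to 3 and 60.4, 53.2 and 59.7 TPM in WT 1 to 3, or 57.3 ± 1.40 TPM in cKO and 57.8 ± 3.93 TPM in WT (SD, n = 3 each). The 80 glycolytic and pyruvate members held 25.3, 52.1 and 30.8 TPM in cKO 1 to 3 and 59.5, 51.3 and 57.6 TPM in WT 1 to 3. The 10 pentose phosphate members held 32.4, 6.27 and 24.8 TPM in cKO 1 to 3 and 0.83, 1.91 and 2.06 TPM in WT 1 to 3. The pentose phosphate sums did not overlap between the genotypes, and most of them in cKO came from Tkt-208 and Taldo1-205. In cKO 2, Tkt-208 alone held 5.66 of the 6.27 TPM. The listed forms of Pgd, Rpe and Rpia and the other Tkt forms were lower in mean in cKO. Those of G6pdx were higher in mean. No share of non-overlap over comparable sums was computed. The glycolytic sum of cKO 2 lay within the WT range, while cKO 1 and cKO 3 were below it. In bulk RNA, fewer cells of a type and less RNA per cell cannot be told apart.

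**Figure D1:**
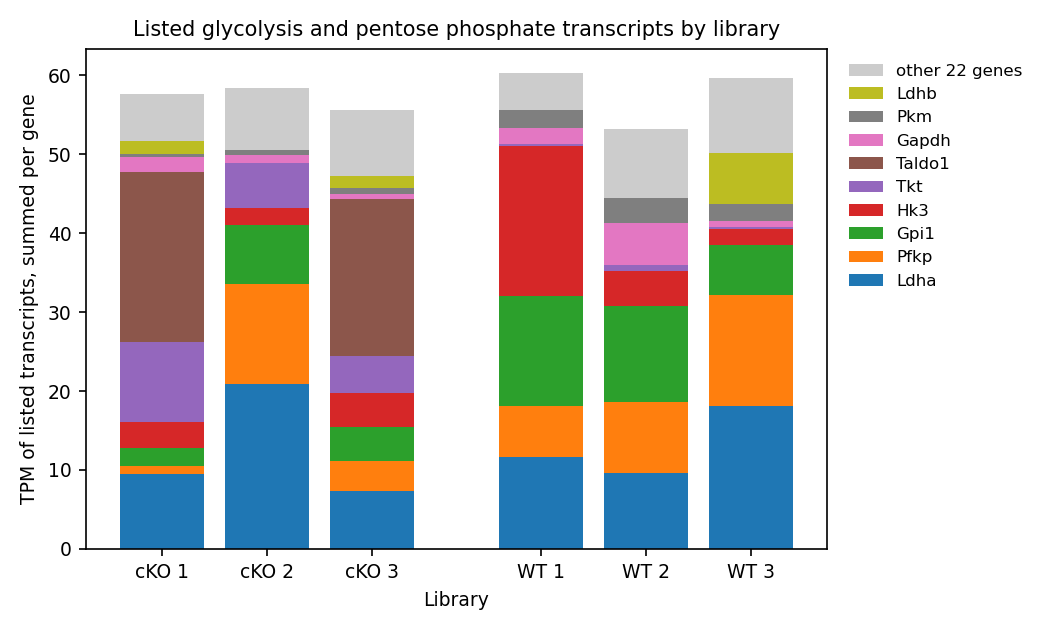
TPM of the listed transcripts of glycolysis and the pentose phosphate pathway, summed per gene and stacked, for each library (x axis). The bars end between 53.2 and 60.4 TPM in all 6 libraries, while Taldo1 is present only in cKO 1 and cKO 3, at 21.6 and 19.8 TPM, and Tkt reaches 4.72 to 10.3 TPM in cKO and at most 0.75 TPM in WT.

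The table lists 7 transcripts of Fbxo38 itself, 3 higher and 4 lower in cKO, with sums of 6.14, 9.08 and 5.9 TPM in cKO 1 to 3 and 8.79, 11.8 and 12.4 TPM in WT 1 to 3. The sums overlapped, and the files do not show which of these transcripts hold the deleted part. All listed transcripts together made up 2.01% to 3.79% of the TPM in cKO and 2.33% to 6.57% in WT, WT 2 being the highest. The listed Ddx3y, Eif2s3y, Kdm5d and Uty transcripts, all Y-linked, were each at 0.01 TPM or less per gene in WT 1 and WT 2 and at 0.77 TPM or more in the 3 cKO libraries and WT 3. Those of Xist summed to 0 in the 3 cKO libraries and to 3.83, 43.8 and 0 TPM in WT 1 to 3, and the Y-linked split entered 1 added fit. The 3 cKO libraries and WT 3 thus shared a pattern of these genes that WT 1 and WT 2 did not have. This pattern is largely confounded with genotype. Only WT 3 had the pattern without the cKO genotype. In the comparisons of cKO with all WT libraries, the parts of the pattern and of genotype cannot be told apart. Of 15 macrophage markers, 5 had a listed transcript, and their sum was 250 to 910 TPM in cKO and 200 to 380 TPM in WT, nearly all from Tyrobp. Spi1 was also higher in mean in cKO, at 16.3 ± 4.00 TPM against 9.58 ± 3.13 TPM in WT (SD, n = 3 each). Its values overlapped between the genotypes. Adgre1, Itgam and Csf1r had the opposite order in mean. The listed forms of Adgre1 summed to 1.12, 4.16 and 3.82 TPM in cKO 1 to 3 and to 5.19, 12.7 and 10.2 TPM in WT 1 to 3, with no overlap, and those of Itgam and Csf1r were lower in mean in cKO, Csf1r being at 0 in cKO 1 and cKO 3. Cd68, Lyz2, Mertk and Cd14 have no listed transcript, so the cell type could not be checked against them. Of 10 markers of resident large peritoneal macrophages, 5 were listed, with sums of 2.75 to 3.54 TPM in cKO and 4.68 to 17.02 TPM in WT. They were mixed in direction, with Gata6, Rarb and Selp lower in mean in cKO. Prg4 was higher in mean, at 0.49, 1.29 and 0.78 TPM in cKO 1 to 3 and 0.11, 1.08 and 0.46 TPM in WT 1 to 3. Icam2 was slightly higher in mean, with 0.88 TPM in cKO 1, 0.81 TPM in WT 2 and 0 elsewhere. Of 13 markers of alternative activation, 7 were listed, with sums of 660 to 1075 TPM in cKO and 1700 to 2693 TPM in WT, mostly Arg1. The list was mixed in direction. Arg1, Il4ra, Mgl2, Clec10a and Pdcd1lg2 were lower in mean in cKO. Retnla was higher in mean, with 139 TPM in cKO 2, 38.1 TPM in WT 2 and 0 elsewhere. Egr2 was higher with no overlap, at 1.85, 3.09 and 4.01 TPM in cKO 1 to 3. In WT 1 to 3 Egr2 was at 1.72, 0 and 0 TPM. Of 18 mesothelial and fibroblast markers, 15 were listed, with sums of 32.7 to 88.5 TPM in cKO and 84.4 to 616 TPM in WT, again highest in WT 2. Listed markers of B cells, T and NK cells, mast cells, granulocytes and erythroid cells summed to 2.8 TPM or less per list and library. The mesothelial, resident macrophage and alternative activation sums were lower in mean in cKO, and their part in the results for the pathway was not tested.

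Transketolase, encoded by Tkt, moves carbon units between sugar phosphates in the non-oxidative branch. Its retained-intron form Tkt-208 (ENSMUST00000225039) was at 10.2, 5.66 and 4.69 TPM in cKO 1 to 3 and was listed at 0 in all 3 WT libraries. Every cKO library was thus above every WT library. By adjusted p in the authors' deposited table it ranked 1 among all 33539 transcripts, at 1.81e-10, with a log2 fold change of 10.3. By limma the log2(TPM + 1) difference was 2.91 ± 0.40 (SE), with an adjusted p of 0.0651 that did not pass, and the exact permutation p was 0.1, the smallest that 3 against 3 libraries can give. The limma call passed after quantile normalization, with an adjusted p of 0.0384, and with library weights, at 0.0495. As Tkt-208 met the filter through the cKO libraries alone, these limma p-values depend on that selection. Over the alternatives the adjusted p ran from 0.0384 to 0.453. With a pseudocount of 0.1 the difference was 6.04, since the WT values are at 0.

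The other Tkt transcripts in the table went the opposite way at very low levels. Tkt-202, also a retained intron, was at 0.04, 0.04 and 0.03 TPM in cKO 1 to 3 and at 0.09, 0.3 and 0.12 TPM in WT 1 to 3. The assembled MSTRG.5454.2 was listed at 0 in cKO and was at 0.09, 0.45 and 0.09 TPM in WT. The 3 Tkt transcripts summed to 6.89 ± 2.95 TPM in cKO and 0.38 ± 0.32 TPM in WT (SD, n = 3 each). Tkt-208 shares 1236 of its 1401 bases with Tkt-201, so most reads of this form could also come from the coding form, whose level was not analysed here.

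Transaldolase, encoded by Taldo1, works beside transketolase in the same branch. Its only listed form, Taldo1-205 (ENSMUST00000211759), had the highest value of any member. It was at 21.6, 0 and 19.8 TPM in cKO 1 to 3 and listed at 0 in WT 1 to 3. It was therefore high in 2 cKO libraries, while cKO 2 matched the WT libraries. With values in only 2 libraries it was not tested by limma. The log2(TPM + 1) difference was 2.96, with an exact permutation p of 0.4, and the adjusted p in the authors' deposited table was 0.426. It shares 877 of its 915 bases with the coding form.

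The remaining pentose phosphate members stayed low. G6pdx, the first and rate-limiting enzyme of the oxidative branch, had 2 listed transcripts and reached 0.63 TPM. Pgd, which makes ribulose 5-phosphate and NADPH, had 1, at 0.62 and 0.6 TPM in WT 1 and WT 3 and at 0 elsewhere. Rpia and Rpe, the isomerase and epimerase of pentose phosphates, had 2 and 1. The Rpe transcript was at 0 in cKO and at 0, 0.18 and 1.23 TPM in WT 1 to 3. Pgls has no listed transcript and was not analysed here.

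**Figure D2:**
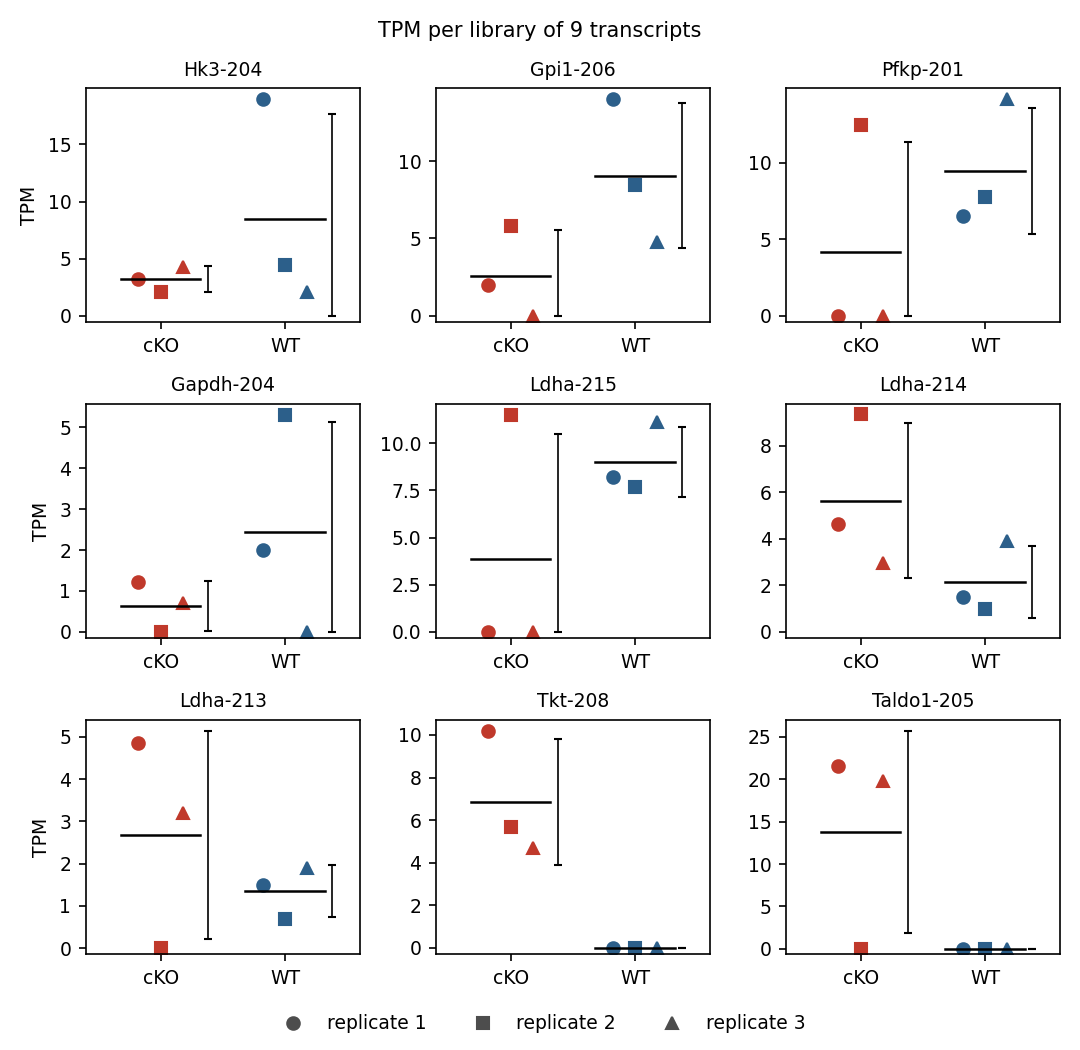
TPM (y axis, from 0) of the 8 tested members and Taldo1-205 in cKO and WT libraries, marker shapes giving the replicate number. Horizontal lines are means and the bars beside them 1 SD, n = 3 each, with lower ends stopped at 0. Only for Tkt-208 does every cKO library lie above every WT library, and Pfkp-201 and Ldha-215 are at 0 in cKO 1 and cKO 3 but not in cKO 2.

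At the top of glycolysis, hexokinases trap glucose as glucose 6-phosphate. Hk3, the hexokinase of myeloid cells, had 1 listed form, Hk3-204 (ENSMUST00000132309). It was at 3.23, 2.08 and 4.32 TPM in cKO 1 to 3 and at 19.0, 4.46 and 2.11 TPM in WT 1 to 3. The groups overlapped, and WT 1 alone set the WT mean of 8.52 ± 9.14 TPM apart from the cKO mean of 3.21 ± 1.12 TPM (SD, n = 3 each). The log2 difference was -0.76 ± 0.72 (SE), with a limma adjusted p of 0.388, and -0.0046 without WT 1. Hk1 had 2 listed transcripts of at most 0.62 TPM. The incomplete coding form Hk1-212 was at 0.22, 0.11 and 0 TPM in cKO 1 to 3 and at 0.26, 0.61 and 0.62 TPM in WT 1 to 3. Hk2 has no listed transcript.

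Glucose-6-phosphate isomerase, encoded by Gpi1, makes fructose 6-phosphate. Gpi1-206 (ENSMUST00000205865), annotated as subject to nonsense-mediated decay, was at 1.97, 5.79 and 0 TPM in cKO 1 to 3 and at 14.01, 8.42 and 4.76 TPM in WT 1 to 3. The means were 2.59 ± 2.94 TPM in cKO and 9.06 ± 4.66 TPM in WT (SD, n = 3 each), and cKO 2 lay above WT 3. The log2 difference was -1.78 ± 0.76 (SE), with a limma adjusted p of 0.209, and -1.06 without cKO 3. In the other direction, the incomplete coding form Gpi1-205 was at 0, 0.88 and 3.78 TPM in cKO 1 to 3 and listed at 0 in WT. The retained intron Gpi1-211 reached 3.74 TPM in WT 2, and the fourth listed form, ENSMUST00000205983, was above 0 in cKO 1 only, at 0.22 TPM. The 4 forms summed to 4.68 ± 2.64 TPM in cKO and 10.8 ± 4.06 TPM in WT.

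Phosphofructokinase-1 commits sugar to glycolysis, and Pfkp encodes its platelet-type subunit. The coding form Pfkp-201 (ENSMUST00000021614) was at 0, 12.4 and 0 TPM in cKO 1 to 3 and at 6.52, 7.73 and 14.2 TPM in WT 1 to 3. It was listed at 0 in cKO 1 and cKO 3, while cKO 2 lay within the WT range. The log2 difference was -2.07 ± 1.00 (SE), with a limma adjusted p of 0.211, and -3.32 without cKO 2, with a limma adjusted p of 0.0895. The retained intron Pfkp-206 was at 0.93, 0 and 3.91 TPM in cKO 1 to 3 and listed at 0 in WT, so the cKO libraries with Pfkp-201 at 0 were those with Pfkp-206. Pfkp-207, which carries the alternative exon shown with Pfkp-201, is not among the listed transcripts and was not analysed here. The other 3 Pfkp forms reached 0.73 TPM at most, and Pfkl, the liver-type subunit, had 2 forms that were at 0 in cKO and at most 0.31 TPM in WT. Pfkm has no listed transcript.

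The bifunctional enzymes of the Pfkfb family set the level of fructose 2,6-bisphosphate, the strongest activator of phosphofructokinase-1. Together they gave 18 members, 1 of Pfkfb1, 3 of Pfkfb2, 9 of Pfkfb3 and 5 of Pfkfb4, of which none reached 1 TPM. The highest was Pfkfb3 ENSMUST00000183869, at 0.95 TPM in cKO 3. The Pfkfb3 forms summed to 0.81 ± 0.54 TPM in cKO and 0.79 ± 0.54 TPM in WT (SD, n = 3 each), with 4 forms listed higher and 5 lower. Pfkfb4 ENSMUST00000051873, a coding form, was at 0 in cKO and at 0.48, 0.87 and 0 TPM in WT 1 to 3.

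Further down the pathway, listed forms were low and scattered over the libraries. Aldolase, which splits fructose 1,6-bisphosphate, had 1 form of Aldoa and 3 of Aldoc, of at most 0.66 TPM. Triose-phosphate isomerase had 2 forms of Tpi1, the higher at 1.07 TPM in cKO 3 and at 0.09 TPM or less in each other library. Gapdh, the oxidising step, had 3 forms. Gapdh-204 was at 1.21, 0 and 0.71 TPM in cKO 1 to 3 and at 2.01, 5.31 and 0 TPM in WT 1 to 3, a log2 difference of -0.78 ± 0.67 (SE) with a limma adjusted p of 0.368. Without WT 2 the difference was -0.16, and without WT 3 it was -1.48. Pgk1, which makes the first ATP, had 1 form of at most 0.17 TPM, and Pgam1 and Pgam2 have none listed. Gapdh and Ldha have many near-identical pseudogenes in the mouse genome, so their reads could be split with those copies.

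Enolase, which makes phosphoenolpyruvate, gave 15 members, 6 of Eno1, 6 of Eno2 and 3 of Eno3. The Eno1 forms reached 0.92 TPM at most and summed to 1.24 ± 0.69 TPM in cKO and 1.04 ± 0.59 TPM in WT (SD, n = 3 each). The retained intron Eno2-211 was at 0, 0.63 and 2.57 TPM in cKO 1 to 3 and at 0, 0 and 0.02 TPM in WT 1 to 3. The muscle enolase form Eno3-206, the principal form, was at 2.31, 0 and 0.84 TPM in cKO 1 to 3 and at 0.01, 0 and 0.35 TPM in WT 1 to 3. For Eno2-211 and Eno3-206 the groups overlapped.

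Pyruvate kinase, encoded by Pkm, makes pyruvate and ATP. It was among 11 of the 31 genes with only lower listed forms. All 4 of its forms were lower in mean in cKO, while the values of Pkm-204 and Pkm-208 overlapped between the genotypes. The sum of the 4 forms was 0.28, 0.71 and 0.7 TPM in cKO 1 to 3 and 2.21, 3.1 and 2.18 TPM in WT 1 to 3. The means were 0.56 ± 0.25 TPM in cKO and 2.50 ± 0.52 TPM in WT (SD, n = 3 each). The sums did not overlap, and their exact permutation p was 0.1, the smallest possible. Of the 31 genes, the sums of 3, Pkm, Tkt and Hk1, did not overlap between the genotypes, or 9.68%, against 14.8% of all listed genes. The assembled form MSTRG.18780.1 was at 0.28, 0.71 and 0.36 TPM in cKO 1 to 3 and at 1.57, 0.75 and 0.83 TPM in WT 1 to 3. Pkm-208 was at 0 in cKO and at 0, 1.77 and 0.89 TPM in WT 1 to 3. These forms hold a few TPM, and the main forms of Pkm were not analysed here.

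Lactate dehydrogenase turns pyruvate into lactate and restores NAD+. Ldha, the muscle-type subunit, had 7 listed forms, and 3 of them were tested, with different directions. Ldha-215 (ENSMUST00000210968) was at 0, 11.5 and 0 TPM in cKO 1 to 3 and at 8.2, 7.66 and 11.1 TPM in WT 1 to 3. As for Pfkp-201, cKO 1 and cKO 3 were at 0, while cKO 2 lay above every WT library. Its log2 difference was -2.09 ± 0.96 (SE), with a limma adjusted p of 0.209, and -3.31 without cKO 2, with a limma adjusted p of 0.0651. Ldha-214 (ENSMUST00000210815) was at 4.62, 9.36 and 2.94 TPM in cKO 1 to 3 and at 1.5, 0.99 and 3.9 TPM in WT 1 to 3. Its log2 difference was 1.08 ± 0.56 (SE), with a limma adjusted p of 0.224, and cKO 3 lay below WT 3. Ldha-213 (ENSMUST00000210631) was at 4.86, 0 and 3.19 TPM in cKO 1 to 3 and at 1.49, 0.68 and 1.89 TPM in WT 1 to 3, a log2 difference of 0.34 ± 0.67 (SE) with a limma adjusted p of 0.644. Over all 7 forms the sum was 12.5 ± 7.30 TPM in cKO and 13.1 ± 4.42 TPM in WT (SD, n = 3 each), with an exact permutation p of 0.7. All 3 are annotated as coding, Ldha-215 as incomplete.

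Ldhb, the heart-type subunit, had 4 listed forms. Ldhb-201 was at 0.78, 0 and 0 TPM in cKO 1 to 3 and at 0, 0 and 3.21 TPM in WT 1 to 3, and ENSMUST00000239395 has the same values in each library. The pyruvate dehydrogenase kinases, which inhibit pyruvate dehydrogenase, gave 3 forms of Pdk1 and 1 of Pdk2, all of at most 0.45 TPM. Pdk1-203, Pdk1-208 and Pdk2-202 were above 0 in cKO 2 only, and Pdk1-205 reached 0.03 TPM at most. The dehydrogenase itself gave 1 form of Pdha1, 2 of Pdhb and 1 of Pdhx, all listed lower in cKO. The Pdhx form was at 0, 0 and 0.12 TPM in cKO 1 to 3 and at 1.24, 0 and 0 TPM in WT 1 to 3. Pdha2, Pdk3 and Pdk4 have no listed transcript.

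**Figure D3:**
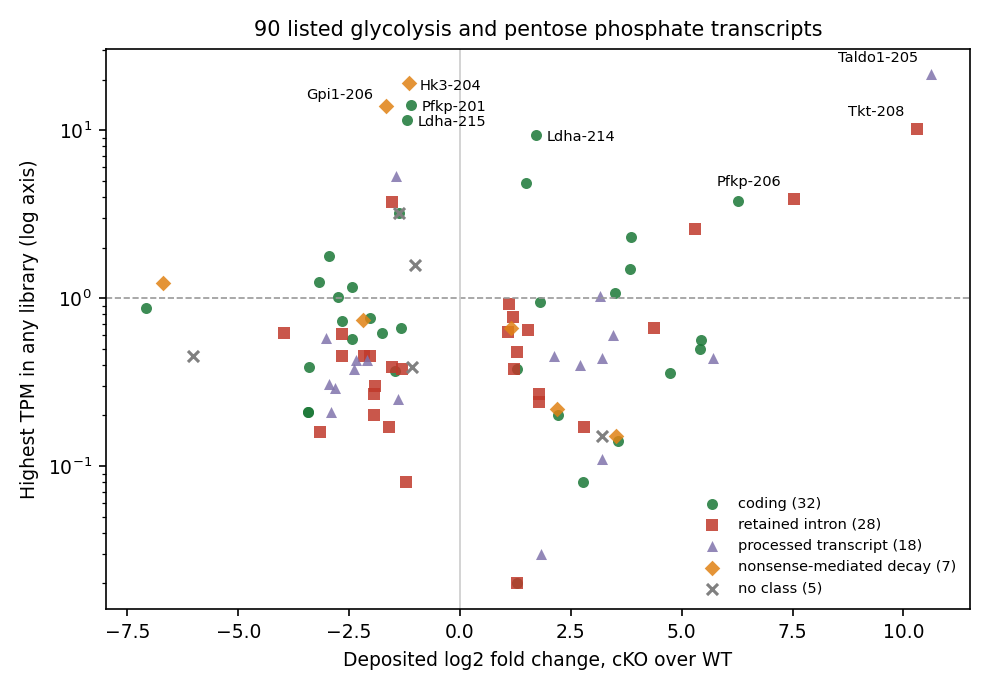
The 90 members by the log2 fold change that the authors' deposited table gives (x axis, cKO over WT) and their highest TPM in any library (y axis, log scale), with the GENCODE class as colour and shape. The dashed line is 1 TPM, and 65 members lie below it. Taldo1-205 and Tkt-208 lie far to the right at 21.6 and 10.2 TPM.

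Across the members, the directions listed in the authors' deposited table were mixed. There were 42 forms listed higher and 48 lower in cKO, or 53.3% lower, against 60.6% of all listed transcripts. Of the 21 genes with at least 2 listed forms, 14 had forms in both directions, or 66.7%, against 65.7% of all such genes. The values of 33 members, or 36.7%, were above 0 in a single library, against 36.0% of all listed transcripts. The genotypes did not overlap for 7 of the 90 members, or 7.78%, against 10.5% of all listed transcripts. Of these, 1 was higher in cKO, Tkt-208, against 2.39% of all listed transcripts, and 6 were lower, against 8.11%. Those 6 were Tkt-202, Tkt MSTRG.5454.2, Pkm-203, Pkm MSTRG.18780.1, Hk1-212 and Pfkfb4-210, none above 1.57 TPM.

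Genes next to these enzymes gave few tested transcripts, and none passed by limma. Among sugar transporters and side branches of glycolysis, 4 transcripts were tested, 1 higher and 3 lower in cKO. A retained intron of Khk, which phosphorylates fructose, was at 5.88, 2.97 and 2.61 TPM in cKO 1 to 3 and at 1.2, 2 and 1.69 TPM in WT 1 to 3, with no overlap and a limma adjusted p of 0.228. A transcript of Gpd1, the glycerol 3-phosphate dehydrogenase, was at 0.38 ± 0.04 TPM in cKO and 1.25 ± 0.22 TPM in WT (SD, n = 3 each), and one of the aldehyde dehydrogenase gene Aldh2 at 0.81 ± 0.50 TPM in cKO and 2.04 ± 0.35 TPM in WT, each with a limma adjusted p of 0.209.

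Among neighbours of the pentose phosphate pathway, 4 transcripts were tested, 2 in each direction. A coding form of Nadk, the kinase that makes NADP+, was listed at 0 in cKO and was at 2.78, 2.79 and 1.02 TPM in WT 1 to 3. In the authors' deposited table its adjusted p was 3.23e-07, while the limma adjusted p was 0.137. The Nadk form met the filter only through the WT libraries, where it was high. A coding form of H6pd, which runs the oxidative branch in the endoplasmic reticulum, was at 0.92 ± 0.23 TPM in cKO and 2.51 ± 1.23 TPM in WT, with a limma adjusted p of 0.213. The third named, the deoxyribose-phosphate aldolase gene Dera, had a form at 1.72 ± 1.49 TPM in cKO and 0.63 ± 0.63 TPM in WT, with a limma adjusted p of 0.401.

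Of transcripts for pyruvate entry and the citric acid cycle, 4 were tested, 1 higher and 3 lower in cKO. A processed transcript of Dlat, a subunit of pyruvate dehydrogenase, was at 0.58, 3.45 and 0 TPM in cKO 1 to 3 and at 4.11, 4.06 and 3.5 TPM in WT 1 to 3. Here too cKO 2 was closest to the WT libraries. Its limma adjusted p was 0.209, as was that of a retained intron of Sdha. The listed form of Pdp1, the phosphatase that reactivates pyruvate dehydrogenase, was at 0.79 ± 0.98 TPM in cKO and 3.70 ± 2.53 TPM in WT (SD, n = 3 each), with a limma adjusted p of 0.209. A form of Mdh2 subject to nonsense-mediated decay was at 22.9 ± 3.79 TPM in cKO and 13.6 ± 8.99 TPM in WT, with a limma adjusted p of 0.327.

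Of 7 tested transcripts of regulators of glycolysis, 3 were higher and 4 lower in cKO. A coding form of Myc, a transcription factor that drives glycolytic genes, was at 1.19 ± 0.41 TPM in cKO and 3.67 ± 2.07 TPM in WT, with a limma adjusted p of 0.209. An assembled form of Arnt, the partner of the hypoxia-inducible factors, was at 0.95 ± 0.63 TPM in cKO and 3.23 ± 2.02 TPM in WT, with a limma adjusted p of 0.210. WT 2 was the highest library for both, as for the mesothelial markers. Forms of Mlx and Mtor were higher in mean in cKO, with log2 differences of 0.50 and 0.34 and limma adjusted p of 0.370 and 0.436.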

How the data were processed

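Poly(A) RNA of 6 libraries was read in pairs from stranded libraries, trimmed with fastp, aligned with HISAT2 and assembled with StringTie, per the labels' protocols. The submitters' processing notes add RSEM and DESeq2, with no version. No genome build or annotation is given in the sources used here, and no coordinates are printed. The deposited TPM are the authors' values per transcript, and the authors' means per genotype were not used. Per the file headers, the other columns hold the authors' cKO/WT fold change (a ratio), the same on the log2 scale, and p-values before and after adjustment. The table was selected on that log2 value (absolute value 1 or more), so p-values computed on it run over preselected transcripts. All columns of per-sample values were matched to a library by their labels. Depth is unknown, since TPM do not keep it, and counting intervals are left out.

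Transcripts with at least 1 TPM in at least 3 libraries were compared as log2(TPM + 1), which understates changes of low transcripts, with limma 3.58.1 in R 4.3.3 (variance trend, group as the only term, two-sided, Benjamini-Hochberg at 0.05). The fit gave 2050 tested transcripts. The test was also run on simulated normal values set well above 0, which does not cover transcripts with values at 0. Exact permutation tests are two-sided, on log2(TPM + 1). Over tested transcripts above 0 in both genotypes, the log2 ratio of the mean TPM minus the deposited log2 fold change had a median of -0.38. The labels name pairs of littermates but not which library numbers belong together. The members and lists were chosen with earlier results of these data known. Full values were given for members with a mean of at least 5 TPM in a genotype or called in a comparison, and for lists up to 4 tested genes with the smallest p. Some items that this rule names are not reported here. Other members were named with their values known. Transcript classes and sequences came from GENCODE M21, matched by identifier without version, with a class for 85 of 90 members. Alternatives were each library left out, the replicate number as a block, a pseudocount of 0.1, no filter, a mean of at least 5 TPM, median-ratio rescaling, quantile normalization and library weights. The presence of Y-linked transcripts as a term was added after the data were seen. Python 3.11.15, pandas 2.3.3, numpy 2.4.6, scipy 1.17.1 and matplotlib 3.10.9 were used.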

Additional observations from a re-analysis of the deposited data

How the results depend on the processing

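Of 119 values of single members under the alternatives, 113 counted as unchanged, 4 reversed and 2 passed the threshold. Unchanged means the same direction and, except for Taldo1-205, the same side of the threshold. Taldo1-205 had no adjusted p and was judged by direction alone. It and Tkt-208 were at 0 in all WT libraries, so their direction had little room to reverse. The count of all tested transcripts past the adjusted threshold was 0, and it ran from 0 to 4 with each library left out, the 4 coming without cKO 2. It was 3 with quantile normalization and 3 with library weights. The count of members past the threshold stayed at 0 with each library left out and was 1, Tkt-208, with quantile normalization and with library weights. The median log2 difference of the tested members, -0.77, ran from -1.42 to -0.35 with each library left out, and was -1.78 for the 5 members with a mean of at least 5 TPM, 1 of them higher and 4 lower. It was -0.13 with median-ratio rescaling, -0.09 with library weights and -0.09 over all 90 members without a filter. Median-ratio rescaling moved the median of all tested transcripts to 0.33, against -0.39 as reported. Without a filter, 42 members were higher and 48 lower. With the presence of Y-linked transcripts as a term, chosen after seeing the data, the median was 0.16, with 5 members higher and 3 lower, Hk3-204 (ENSMUST00000132309) was at 0.40 and Gapdh-204 (ENSMUST00000144205) at 0.64, and the Tkt-208 difference was 2.91. That term compares cKO with WT 3 alone. Ldha-213 (ENSMUST00000210631) was at -0.20 with a pseudocount of 0.1 and ran from -0.17 to 1.11 with each library left out, the lowest without cKO 1. Where these values moved, the cause was not tested, except that a change of filter tests other transcripts. The deviations of same-numbered libraries correlated at 0.13, -0.14 and -0.11 over the tested transcripts. Between differently numbered cKO and WT libraries the correlations ran from -0.19 to 0.23. Such weak correlations cannot decide whether same-numbered libraries come from a pair of littermates. With the replicate number as a block, 0 transcripts and 0 members passed, and the adjusted p of Tkt-208 was 0.202. TPM without depth leave the precision of the low values unknown.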

Other observations

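The split of the cKO libraries seen for Pfkp-201, Ldha-215 and Taldo1-205 was counted over all listed transcripts that reach at least 5 TPM in a library, after it had been noticed in these members. Of 1203 such transcripts, 24 were at 0 in cKO 1 and cKO 3 but above 0 in cKO 2 and in all WT libraries. The corresponding counts were 6 for transcripts at 0 in cKO 1 and cKO 2 and 8 for those at 0 in cKO 2 and cKO 3. In the opposite direction, 15 transcripts were above 0 in cKO 1 and cKO 3 alone, against 4 in cKO 1 and cKO 2 alone and 4 in cKO 2 and cKO 3 alone. Transcripts above 0 in all cKO libraries and at 0 in all WT libraries, as Tkt-208 was, numbered 5, and those at 0 in all cKO libraries and above 0 in all WT libraries numbered 3.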
